A study of Homo sapiens with 16 samples.

Results

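The response to HMBA was examined in the control arm of an RNA-seq study, in 4 of its 16 libraries. All libraries are labelled HCT116, a human colorectal carcinoma cell line, in which either a control hairpin (shCTL) or a hairpin that targets NELFE (shNELFE) was expressed. Each line was treated with DMSO, EPZ-5676, HMBA or both compounds, which gives 8 groups with 2 libraries each, numbered 1 and 2. The 4 libraries used here are the shCTL libraries numbered 2. The library given HMBA and the library given HMBA with EPZ-5676 were set against the library given DMSO and the library given EPZ-5676 without HMBA. They form 2 pairs that share no library, 1 with EPZ-5676 and 1 without it, so all 4 libraries share the control shRNA and each pair shares its EPZ-5676 status. The labels give no dose, time or clone, and the sequence of the control shRNA is not given in them.

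Hexamethylene bisacetamide (HMBA) is a polar compound long used to induce differentiation of cultured cells. The kinase P-TEFb, made of CDK9 and a cyclin T, phosphorylates RNA polymerase II and its pausing factors and so starts productive elongation. Much of P-TEFb is held inactive in the 7SK ribonucleoprotein by HEXIM1 or HEXIM2, and HMBA is known to release it and to induce HEXIM1, which was named after the compound. EPZ-5676 inhibits DOT1L, the methyltransferase of histone H3 lysine 79. The comparison asks which mRNAs change with HMBA in cells that keep NELFE.

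Total counts in the 4 libraries ran from 13428893 to 16354111, so that a floor of 3 counts corresponds to 0.183 to 0.223 CPM, the count of a gene scaled to a common library total. CPM values are on library totals scaled by TMM over the 4 libraries, and the floor covers counting error only. Compared gene by gene (genes are not independent), the log2 CPM values had a Pearson's r of 0.947 to 0.99 among the 4 libraries, and 0.74 to 0.804 between them and the shCTL libraries numbered 1. The shCTL DMSO library numbered 1 had an r of 0.991 with the shCTL library numbered 1 given both compounds. HEXIM1 was 44.8 to 76.1 CPM (scaled over all 16 libraries) in the 4 shCTL libraries numbered 1, whether or not the label named HMBA. Those libraries are left out because their expression profiles do not match their labels. HEXIM1 was in view in that choice, so its rise in the libraries kept is not independent of it. Each group is then 1 library, the spread in the HMBA test comes from the disagreement between the 2 pairs, pooled over genes, and nothing states that libraries came from separate cultures. The p-values therefore measure the spread between these samples only, which may be technical. The epithelial genes EPCAM and KRT8 were found in all 4 libraries, with 317 to 348 and 2960 to 3220 CPM, and did not pass the test. KRT18, KRT19 and CDX2, an intestinal transcription factor, fell by 0.84, 0.53 and 1.81 on the log2 scale, CDH1 rose by 1.02, and CEACAM5 and LGR5 were at or near 0 in all 4. Among markers of fibroblasts, endothelium, leukocytes, neurons, hepatocytes and muscle, DCN, LUM, PTPRC, CD3E, CHGA, TTR and MYH7 were at or near 0. Summed levels were higher with HMBA for the fibroblast list, from 22.1 to 31.6 CPM without it and 52.4 to 55 with it, mostly COL1A1. They were higher for endothelium, 2.46 to 3.67 against 12.5 to 15.6, mostly PECAM1, for leukocytes, 17.5 to 21.3 against 24 to 31, mostly CD68, and for neurons, 229 to 246 against 597 to 603, mostly TUBB3 and ENO2. Sums for hepatocytes were 3.78 to 4.98 against 4.67 to 7.44 and for muscle 2.12 to 2.76 against 4.18 to 5.04. Their part in the results was not tested.

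The levels of many mRNAs changed with HMBA. Of 14248 genes tested, 8970 passed the test, here called, at a Benjamini-Hochberg adjusted p under 0.05 in edgeR's quasi-likelihood test with EPZ-5676 as a term (63.0% of genes tested). Higher calls numbered 4347 (30.5%) and lower calls 4623 (32.4%), so that 48.5% of calls were higher. The counts of called members in each gene list below are to be read against these shares of all genes tested. DESeq2 called 6141 genes (43.1%), and edgeR called 6635 (44.9%) without the HMBA library and 6341 (43.2%) without the library with both compounds. On totals without TMM scaling, which moves the median log2 fold change of all genes from 0.00239 to -0.209, 32.7% of 9147 calls were higher. Changes of at least 2-fold were called for 1508 higher genes (10.6%) and 1881 lower genes (13.2%). At 16-fold or more there were 121 higher and 46 lower genes, while 3301 called genes moved by less than 1.5-fold. A fit of all 8 shCTL libraries with the replicate number as a block called 0 genes in edgeR (366 at an unadjusted p under 0.05), 0 in limma-voom and 7 in DESeq2, and the libraries numbered 1 in it go against their labels as described above.

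The response was then compared between the pairs. Of 1574 genes at least 2-fold higher in the pair without EPZ-5676, 1259 (80.0%) were at least 2-fold higher in the pair with it and 1524 moved the same way. Of 1911 genes at least 2-fold lower in the first pair, 1547 (81.0%) were at least 2-fold lower in the second and 1879 moved the same way. Opposite 2-fold changes were seen for 16 and 7 genes. The median absolute difference between the pairs' log2 ratios was 0.192 over all genes and 0.152 over the 10870 genes with a mean of 5 CPM or more, for which Pearson's r of the log2 ratios was 0.938 across genes. The values with HMBA lay all above those without it for 39.1% of genes tested and all below for 39.8%.

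**Figure D1:**
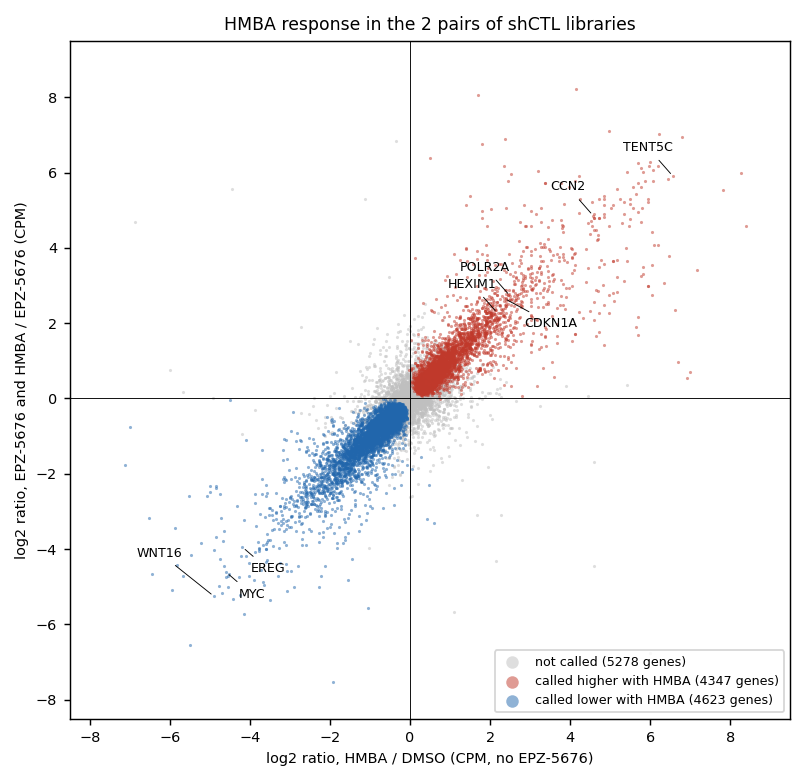
Each point is a gene, with its log2 ratio of CPM (HMBA over DMSO) on the horizontal axis and that of the pair treated with EPZ-5676 on the vertical axis. Red points are the 4347 genes called higher, blue points the 4623 called lower and grey points the other genes tested, and named genes are joined to their points by a line. Of the 8970 called genes, 8963 moved the same way in both pairs.

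The P-TEFb and 7SK genes moved in different directions. Of 7 members tested, 3 were called higher and 3 lower (42.9% each, against 30.5% and 32.4% of all genes tested). HEXIM1 (ENSG00000186834, hg38 chromosome 17, 45148502 to 45152101, a gene with 1 exon) stood at 84.1 CPM with DMSO, 80.5 with EPZ-5676, 383 with HMBA and 387 with the compounds combined. Its levels with HMBA lay far above both levels without it, with a log2 fold change of 2.22 (SE 0.07, adjusted p = 8.3e-12). HEXIM2, the paralogue that can replace HEXIM1 in the complex, stood at 9.75 CPM with DMSO, 10.2 with EPZ-5676, 1.53 with HMBA and 1.26 with the compounds combined and was lower in both pairs (log2 -2.84, SE 0.25, adjusted p = 1.4e-07). CCNT1, the main cyclin partner of CDK9, rose from 117 and 101 CPM to 159 and 193 with HMBA (log2 0.69). MEPCE, which caps and stabilises 7SK RNA, rose from 62.4 and 78.1 CPM to 101 and 105 (log2 0.56). For CDK9 itself the levels were 70.7 and 70 CPM without HMBA and 54.1 and 58.9 with it (log2 -0.32, adjusted p = 0.0067), and the call was lost without the HMBA library (log2 -0.24, adjusted p = 0.159) and with DESeq2 (adjusted p = 0.0888). LARP7, the 7SK-binding protein, went from 41 and 45.5 CPM to 32.4 and 31.6 (log2 -0.43), a call lost without the library with both compounds (log2 -0.41, adjusted p = 0.0537). CCNT2 levels were 55.9, 45.1, 46.7 and 55.7 CPM under DMSO, EPZ-5676, HMBA and both compounds, and the groups overlapped. These bulk values cannot tell fewer cells that express a gene from less RNA per cell.

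The promoters of HEXIM1, of the gene with the largest rise at 20 CPM or more, TENT5C, and of the gene with the largest fall at that level, WNT16, are shown because they mark the 2 ends of the response. Each is the 250 bases before the transcript start in RefSeq (GRCh38.p14), on the plus strand, with capitals for matches to the E-box CACGTG, the cyclic AMP response element TGACGTCA, the AP-1 site TGANTCA, the GC box GGGCGG, the TATA box TATAAA and the CCAAT box, searched on both strands. The windows are chr17:45148225-45148474 for HEXIM1, chr1:117605798-117606047 for TENT5C and chr7:121328750-121328999 for WNT16. The WNT16 window lies inside the span of the gene in GENCODE release 29 (121325367 to 121341104). Which transcript start these cells use was not tested.
HEXIM1: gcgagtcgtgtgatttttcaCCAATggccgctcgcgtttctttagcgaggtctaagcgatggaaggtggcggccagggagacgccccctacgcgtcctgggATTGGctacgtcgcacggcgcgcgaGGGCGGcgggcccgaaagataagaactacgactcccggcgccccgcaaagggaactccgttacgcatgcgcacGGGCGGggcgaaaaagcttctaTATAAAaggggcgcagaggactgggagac
TENT5C: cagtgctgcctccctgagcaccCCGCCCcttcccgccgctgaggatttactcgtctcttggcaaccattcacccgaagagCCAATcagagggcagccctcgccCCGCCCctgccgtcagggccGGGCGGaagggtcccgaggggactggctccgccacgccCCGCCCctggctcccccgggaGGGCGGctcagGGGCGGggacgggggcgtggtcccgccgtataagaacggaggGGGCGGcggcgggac
WNT16: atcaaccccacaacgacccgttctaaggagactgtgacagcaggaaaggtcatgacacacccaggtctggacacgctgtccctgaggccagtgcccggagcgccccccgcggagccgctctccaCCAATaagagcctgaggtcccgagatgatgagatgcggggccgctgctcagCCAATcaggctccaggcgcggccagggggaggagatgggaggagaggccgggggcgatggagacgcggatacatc
HEXIM1 carries a TATA box match in front of its start, 2 GC box matches and 2 CCAAT matches. TENT5C has 7 GC box matches and 1 CCAAT match, and WNT16 has 2 CCAAT matches and no GC box or TATA match. A match describes letters only and says nothing of a factor bound there.

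Over the 10664 tested genes with an entry in the promoter table, TATAAA was found in the same window of 5.43% of promoters, in 10.6% of the 1032 called at least 2-fold higher and in 4.78% of the 1359 called at least 2-fold lower. Read the other way, 18.8% of the 579 genes with the match were called at least 2-fold higher, against 9.15% of the 10085 without it. CCAAT was in 34.9% of tested promoters, 41.3% of the higher group and 29.1% of the lower group. The E-box, to which MYC and MAX bind, was in 8.53% of tested promoters, 6.98% of the higher group and 9.35% of the lower group. Genes with an E-box were called higher in 26.6% and lower in 38% of cases, against 31.6% and 33.1% of genes without it. For the GC box the shares were 66.9%, 67% and 63.9%, for the AP-1 site 4.05%, 4.07% and 4.86% and for the cyclic AMP element 2.86%, 2.71% and 2.13%. Over all 34796 promoters of the table, the shares were 10.8% for TATAAA, 32% for CCAAT, 6.31% for the E-box, 42.6% for the GC box, 6.59% for the AP-1 site and 1.64% for the cyclic AMP element. These shares are descriptions with no test.

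Among elongation factors other than P-TEFb, 10 of 23 were called higher and 7 lower (43.5% and 30.4%, against 30.5% and 32.4% of all genes tested). Their median log2 fold change of 0.17 turned to -0.04 on unscaled totals. BRD2, a bromodomain reader of acetylated histones, rose from 477 and 438 CPM to 1282 and 1325 (log2 1.51). ELL2, a subunit of the super elongation complex, rose from 61.2 and 61.8 CPM to 159.6 and 169 and MLLT3, another subunit, from 7.3 and 2.98 CPM to 13.9 and 14.7. MLLT1, the paralogue of MLLT3, fell from 56.7 and 70.4 CPM to 24.5 and 27.4 (log2 -1.29), and CDK12, a kinase of elongating RNA polymerase II, from 143 and 129 CPM to 69.5 and 76. Of 7 genes listed for NELF subunits, DOT1L and its partners, 0 were called higher and 6 lower (median log2 -0.42). MLLT3, which rose, was listed with the elongation factors and is not among them, so these counts describe the list as drawn. The largest fall there was that of MLLT10, the DOT1L partner also known as AF10, at 52.5, 55.5, 9.71 and 9.22 CPM under DMSO, EPZ-5676, HMBA and both compounds (log2 -2.51). DOT1L fell from 86 and 77.3 CPM to 23.7 and 29.8. Of 33 Integrator and Mediator subunits, 14 were called lower (23 on unscaled totals) and 5 higher. The higher calls were 3 without the HMBA library, the EPZ-5676 library or the library with both compounds, 3 with DESeq2 and 3 on unscaled totals. MED26, the Mediator subunit that contacts elongation complexes, was the largest rise (from 17 and 19.8 CPM to 44.9 and 50.7), and MED8 the largest fall in the list (from 28.9 and 29.9 CPM to 9.79 and 9.62).

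MYC fell steeply, and the genes of its network moved in both directions. MYC, the growth-promoting basic helix-loop-helix factor, stood at 840.3 CPM with DMSO, 838 with EPZ-5676, 34.9 with HMBA and 34.1 with the compounds combined, 2 groups far apart (log2 -4.60, SE 0.08, adjusted p = 1.9e-14). MXD1, which competes with MYC for MAX and represses, rose from 3.78 and 2.7 CPM to 21.5 and 27.1 (log2 2.89, SE 0.19). MYCL, a MYC paralogue, rose from 3.45 and 2.49 CPM to 10.5 and 9.95 (log2 1.79), and MXI1 and MXD4, repressive partners of MAX, by 0.56 and 0.71 on the log2 scale. MGA, a large MAX partner that represses, fell from 77.1 and 64.8 CPM to 16.1 and 19.1 (log2 -2.0), MNT from 18.6 and 27.7 CPM to 9.25 and 10.5 and MLX, the MAX-like partner of glucose-sensing factors, from 90.1 and 89.1 CPM to 38.3 and 33.3. MAX went from 50.5 and 61.4 CPM to 40.5 and 49.6 (log2 -0.31, adjusted p = 0.011), and its call was lost without the HMBA library (log2 -0.15, adjusted p = 0.45) or the EPZ-5676 library (log2 -0.17, adjusted p = 0.35), with DESeq2 and with no EPZ-5676 term. In all, 4 of 11 network genes were called higher and 6 lower (36.4% and 54.5%, against 30.5% and 32.4% of all genes tested). MXD3 did not pass.

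Inhibitors of cyclin-dependent kinases were mostly higher, 5 of 8 called higher and 1 lower (median log2 1.20), against 30.5% and 32.4% of all genes tested. CDKN1A, which encodes p21, stood at 116 CPM with DMSO, 88.1 with EPZ-5676, 589.8 with HMBA and 558 with the compounds combined (log2 2.50, SE 0.08, adjusted p = 8.2e-12). CDKN2B, which encodes the CDK4 and CDK6 inhibitor p15, rose from 5.57 and 4.15 CPM to 29.4 and 26.7 (log2 2.53, SE 0.15). CDKN2D, CDKN1C and CDKN3 rose by 1.72, 1.56 and 0.85 on the log2 scale, with no overlap between the groups. Values with HMBA lay all above those without it for 39.1% of all genes tested. CDKN1B, which encodes p27, was the exception at 13.5 and 13.3 CPM without HMBA and 8.64 and 9.16 with it (log2 -0.59, a call lost without the HMBA library, adjusted p = 0.0595, and with DESeq2, adjusted p = 0.119). CDKN2A and CDKN2C did not pass the test, at 14.9, 12, 14.4 and 13 and 5.51, 5.47, 3.44 and 5.11 CPM under DMSO, EPZ-5676, HMBA and both compounds.

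**Figure D2:**
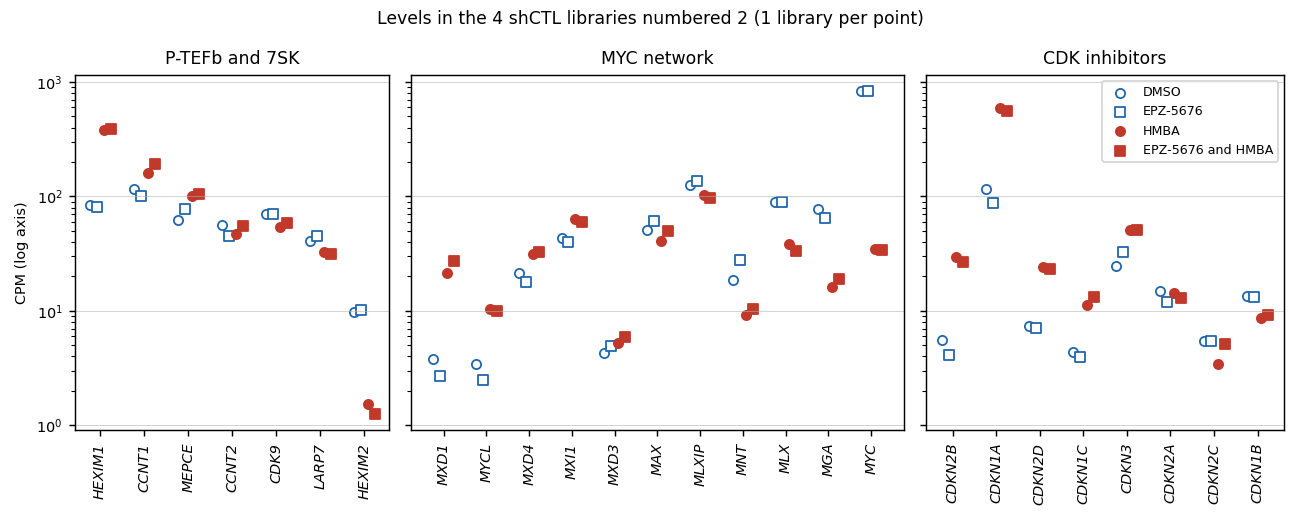
Levels in CPM on a log axis for the P-TEFb and 7SK genes, the MYC network and the CDK inhibitors, 1 point per library, with open blue symbols for the 2 libraries without HMBA, filled red symbols for the 2 with it, circles without EPZ-5676 and squares with it. HEXIM1 rose to 383 and 387 CPM, MYC fell to 34.9 and 34.1 and CDKN1A rose to 590 and 558.

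The 12 largest rises by fold, among genes at 20 CPM or more in the higher group, began from low levels. TENT5C, a non-canonical poly(A) polymerase, stood at 0.663 CPM with DMSO, 1.31 with EPZ-5676, 66 with HMBA and 80.6 with the compounds combined, with 29 counts in the 2 libraries without HMBA and 2078 with it. The ratio of scaled counts was 75.2 (95% exact binomial interval 52.2 to 113, counting error only). DHRS2, a short-chain dehydrogenase, went from 2.39 and 4.84 CPM to 70.1 and 139 with HMBA, and CCN2, a matricellular protein, from 13.3 and 13.8 CPM to 317 and 399. PAG1, a membrane adaptor that binds the kinase CSK, rose from 2.26 and 2.7 CPM to 53.8 and 65.4, and TEX14, known from germ cell bridges, from 2.06 and 2.42 CPM to 52.4 and 54.1. EPHB3, a receptor for ephrins, rose from 1.26 and 1.87 CPM to 33 and 34.8 (log2 4.44), FAM222A from 6.57 and 7.27 CPM to 108 and 116, SGK1, a serum-inducible kinase, from 1.92 and 2.91 CPM to 25.5 and 39.6 and ZCCHC24 from 5.11 and 5.05 CPM to 58.8 and 65. The AP-1 subunit FOS (from 13.7 and 7.54 CPM to 103 and 122) and the histone H2B gene H2BC5 (from 1.53 and 4.22 CPM to 21.9 and 34.7) were also among them. In each gene named here, the lower of the 2 levels with HMBA lay above the higher of those without. The choice of genes by a large fold with 1 direction in both pairs largely fixes this, and it favours low levels without HMBA.

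The 12 largest falls by fold, chosen in the same way, included secreted ligands and transcription factors. WNT16, a WNT ligand, stood at 110.5 CPM with DMSO, 69.6 with EPZ-5676, 3.67 with HMBA and 1.79 with the compounds combined (log2 -5.06, SE 0.14). BMP4, a ligand of BMP receptors, stood at 352 CPM with DMSO, 459 with EPZ-5676, 13.5 with HMBA and 12.8 with the compounds combined (log2 -4.94). In both genes each level with HMBA lay far below each level without it, which the choice of genes by fold largely fixes. PDE4B, which degrades cyclic AMP, fell from 164 and 123 CPM to 5.96 and 3.85, EREG, a ligand of the EGF receptor, from 766 and 462 CPM to 42 and 29.9 and LIF, a cytokine of the IL-6 family, from 208 and 129.7 CPM to 12 and 7.1. F3, the tissue factor that starts clotting, fell from 196 and 309 CPM to 12.1 and 11.8. ZIC5, a zinc finger transcription factor, fell from 23.7 and 25.4 CPM to 1.07 and 0.597 (ratio of scaled counts 30, interval 19.8 to 47.6), and TFAP4, a helix-loop-helix factor, from 35.2 and 50.1 CPM to 2.91 and 2.52. Beside MYC, the list held PLD6, a mitochondrial phospholipase (from 31.8 and 42.8 CPM to 1.15 and 2.19), ITPRIPL1 (from 21.4 and 23.9 CPM to 0.841 and 0.863) and TIGD5 (from 24.2 and 25.7 CPM to 1.22 and 0.929). By difference in CPM, which grows with transcript length and abundance, the largest falls after AKAP12 (from 2749.8 and 2065 CPM to 942 and 672), a scaffold of protein kinase A, were ITPRID2 (from 1907 and 1448 CPM to 306 and 256), EZR (from 2698 and 2921 CPM to 1482 and 1424), a linker of membrane and actin, and MYC. FAT1, PDP1, DKK1 and ARHGAP29 followed with log2 fold changes of -0.65, -2.54, -2.91 and -2.31.

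Most mRNAs for factors that assemble ribosomes fell, and most mRNAs for ribosomal proteins rose. Of 48 ribosome biogenesis factors, 39 were called lower and 3 higher (median log2 -0.80). The higher calls were 1 without the DMSO library, without the library with both compounds and on unscaled totals. URB2, RRS1 and BYSL, nucleolar assembly factors, fell from 91.3 and 94.4 CPM to 8.26 and 12.1, from 79.5 and 87.4 CPM to 15.1 and 20.4 and from 63.1 and 71.4 CPM to 16.4 and 18.8. NPM1, the abundant nucleolar chaperone, went the other way, from 1857 and 1906 CPM to 2804 and 2870.5 (log2 0.59). Of 16 subunits specific to RNA polymerases I and III, 13 were called lower and 1 higher (median log2 -0.70). POLR1B, the second largest subunit of polymerase I, stood at 134, 158, 29.4 and 34.8 CPM under DMSO, EPZ-5676, HMBA and both compounds (log2 -2.19, SE 0.08). POLR3GL, a paralogue of the polymerase III subunit POLR3G, was the exception and rose from 11.6 and 13.1 CPM to 23.6 and 22.2.

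Cytosolic ribosomal protein mRNAs, 81 of which were tested out of 86 in the list, were called higher in 80 cases and lower in 0 (median log2 0.41, 0.20 on unscaled totals). Most lay in a narrow band, and RPL12, RPS4X and RPS20 each rose by 0.68 on the log2 scale, RPL12 from 1571 and 1654 CPM to 2580.3 and 2599. Ribosomal protein genes have many processed pseudogenes, so the authors' counting may split their reads. Translation factors were less uniform, 19 of 37 called higher and 7 lower, with a median log2 of 0.19 that turned to -0.02 on unscaled totals, where 11 were called in each direction. The lower count was 2 to 4 when any library was left out and 3 with DESeq2. EEF1A1, which delivers aminoacyl-tRNA, rose from 15724 and 15996 CPM to 21774 and 23046 and EIF4EBP2, an inhibitor of the cap-binding protein, from 103 and 96.9 CPM to 268 and 286, whereas EIF4E, the cap-binding protein, fell from 108 and 117 CPM to 68.3 and 70.5. RNA polymerase II had 7 of 12 subunits called higher and 1 lower, with 4 higher on unscaled totals. Its largest subunit stood apart, with POLR2A at 399.7 CPM with DMSO, 367 with EPZ-5676, 2259.9 with HMBA and 2416 with the compounds combined (log2 2.61, SE 0.07, adjusted p = 9.6e-13). The next rise among subunits was that of POLR2C, from 103 and 101 CPM to 154 and 154. POLR2D alone was called lower, at 95.2 and 98.6 CPM without HMBA and 78.3 and 90.6 with it, and lost its call without any of the 4 libraries (log2 -0.30 to -0.077) and with DESeq2, no filter or no EPZ-5676 term.

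**Figure D3:**
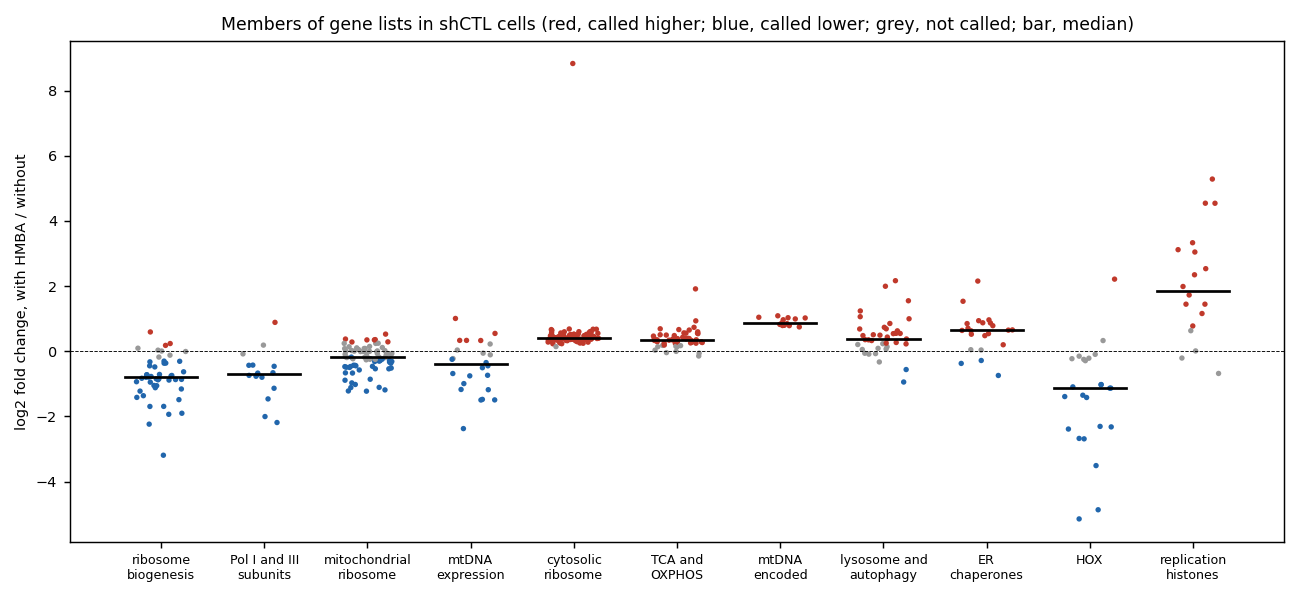
Log2 fold change with HMBA for every tested member of 11 gene lists, 1 point per gene, with a bar at the median of each list. Ribosome biogenesis factors and the subunits of polymerases I and III lie mostly below 0, and cytosolic ribosomal proteins lie above 0 in a narrow band, apart from RPL3L, which had 0 counts without HMBA so that its fitted value is no bound.

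Transcripts made in mitochondria rose together. All 13 mitochondrially encoded mRNAs were called higher, with log2 fold changes from 0.75 to 1.09. MT-ND4L (log2 1.09) and MT-ND5 (log2 1.04) lost their calls with DESeq2 (adjusted p = 0.077 and 0.056). MT-CO1, a subunit of cytochrome c oxidase, stood at 11570.1 CPM with DMSO, 10445 with EPZ-5676, 18665 with HMBA and 20978 with the compounds combined (log2 0.85, SE 0.06). The median rise was 0.65 in the pair without EPZ-5676 and 1.22 in the pair with it. Mitochondrial genes took 8.87% to 10.1% of counts with HMBA and 6.12% to 6.29% without it. Nuclear genes of the respiratory chain and the TCA cycle were called higher in 40 of 50 cases and lower in 0 (median log2 0.35), but in 19 and 4 cases on unscaled totals. OGDH, the first subunit of the oxoglutarate dehydrogenase complex, led with a rise from 104 and 106 CPM to 381 and 411 (log2 1.92), and CYCS, cytochrome c, rose from 279 and 309.9 CPM to 518 and 609.

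Nuclear genes that serve expression of the mitochondrial genome were more often called lower than higher. The shares of all genes tested were 32.4% lower and 30.5% higher. Of 24 genes for mitochondrial transcription and RNA processing, 14 were called lower and 5 higher (median log2 -0.40). The higher calls were 3 without the HMBA library, 3 with DESeq2 and 2 on unscaled totals. TWNK, the mitochondrial DNA helicase, fell from 119 and 149 CPM to 22.3 and 29.5 (log2 -2.37), TFB2M, a mitochondrial transcription factor, from 37.6 and 43.5 CPM to 14.2 and 14.5, and TEFM, its elongation factor, from 10.8 and 9.9 CPM to 3.59 and 3.72. POLG, the mitochondrial DNA polymerase, rose from 80.7 and 83.7 CPM to 160.2 and 170.3. Mitochondrial ribosomal proteins were called lower in 34 and higher in 7 of 78 cases (median log2 -0.19). The lower calls were 21 without the HMBA library, 22 without the library with both compounds, 22 with DESeq2 and 53 on unscaled totals. The higher calls were 4 without the DMSO library, 3 without the library with both compounds and 1 on unscaled totals. MRPS30 fell from 96.5 and 93.9 CPM to 41.4 and 40.3, and MRPL49 rose from 83.3 and 86.5 CPM to 118 and 126. Among 26 genes of purine, pyrimidine and folate metabolism, 14 were called lower and 2 higher. UMPS and DHODH, of pyrimidine synthesis, fell by 1.03 and 1.01 on the log2 scale, and IMPDH2, of guanine nucleotide synthesis, rose from 482 and 564 CPM to 938 and 1024.

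Many chaperone and stress genes rose, where 30.5% of all genes tested were called higher and 32.4% lower. Of 22 genes of the unfolded protein response and endoplasmic reticulum chaperones, 17 were called higher and 3 lower (median log2 0.64). The lower calls were 1 without the HMBA or the EPZ-5676 library and 1 with DESeq2. ERN1, the endoplasmic reticulum stress sensor IRE1, rose from 14.7 and 10.5 CPM to 55.8 and 55.7 (log2 2.15), while XBP1, the mRNA that IRE1 splices, fell from 80.4 and 76.5 CPM to 49.1 and 44.7 (log2 -0.74). HERPUD1 rose from 52.3 and 55.4 CPM to 154 and 158. Heat shock chaperones were called higher in 13 of 28 cases and lower in 3, with 11 lower on unscaled totals. HSPA1B, inducible HSP70, rose from 479 and 361 CPM to 2097 and 1721 and its near-identical copy HSPA1A from 11.5 and 7.75 CPM to 44.1 and 34.6, between which reads may be split, and the constitutive HSPA8 rose from 3662 and 3536 CPM to 8156 and 8234. HSF1, the heat shock factor, fell from 101 and 109 CPM to 73.5 and 74.5. ATF4 targets were called higher in 16 and lower in 7 of 26 cases, with SESN2 and ATF3 at 7.63, 7.13, 52.6 and 53.5 and 8.56, 10.4, 49.1 and 58.7 CPM under DMSO, EPZ-5676, HMBA and both. TRIB3 and STC2, listed as ATF4 targets too, fell from 54.1 and 50.2 CPM to 10 and 8.89 and from 80.9 and 131 CPM to 19.7 and 19.2. In the list as a whole, 4 genes were called at least 2-fold higher and 5 at least 2-fold lower.

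In the list of metallothioneins, zinc transporters, NRF2 targets and ferritin, 19 of 26 were called higher and 4 lower, the latter 2 without the DMSO library and 2 without the library with both compounds. Metallothionein MT1X stood at 20.2 CPM with DMSO, 24.9 with EPZ-5676, 85 with HMBA and 139.9 with the compounds combined, and MT1E and MT2A rose by 1.66 and 1.61 on the log2 scale. Metallothioneins are near-identical copies, between which reads may be split. NFE2L2, which encodes NRF2, and KEAP1, its inhibitor, fell from 160.0 and 172 CPM to 65.4 and 72.1 and from 85.9 and 87.5 CPM to 20 and 21.4. Lysosome and autophagy genes were called higher in 27 of 39 cases and lower in 2 (median log2 0.38). The lower calls were 1 without the HMBA, the EPZ-5676 or the combined library, 1 with DESeq2 and 4 on unscaled totals. ULK1, the kinase that starts autophagy, rose from 15.9 and 15.8 CPM to 71.4 and 71.3 (log2 2.17) and MAP1LC3B, an autophagosome marker, from 89.7 and 92.5 CPM to 350.1 and 377. Proteasome subunits were called higher in 18 of 31 cases, but in 10 without the DMSO library, 6 without HMBA, 8 without EPZ-5676, 5 without both compounds and 4 on unscaled totals, and their changes stayed below 0.58 on the log2 scale.

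Cell cycle genes of the G1 to S step mostly fell, 30 of 49 called lower and 9 higher (median log2 -0.42), the latter 5 without the library with both compounds and 4 on unscaled totals. E2F2, an activating E2F, fell from 21.4 and 21.5 CPM to 4.36 and 3.25 (log2 -2.50) and CDC25A, the phosphatase that activates CDK2, from 68 and 77.4 CPM to 15.8 and 16.9. GINS4 and GINS3, subunits of 1 replicative helicase complex, moved apart, with GINS4 at 19, 17.4, 53 and 52.6 CPM and GINS3 at 18.6, 21.4, 5.28 and 6.77 CPM under DMSO, EPZ-5676, HMBA and both. PCNA, the replication clamp, rose from 189 and 196 CPM to 308 and 334. Mitotic genes were called lower in 17 and higher in 9 of 43 cases, with 28 lower on unscaled totals. These shares, 39.5% lower and 20.9% higher, compare with 32.4% and 30.5% of all genes tested. AURKA, a mitotic kinase, fell from 68.1 and 76 CPM to 26.5 and 25.3 and CKS2, a small CDK-binding protein, rose from 80.3 and 70.8 CPM to 174 and 181. Of 67 replication-dependent histone genes, 18 passed the filter on low counts, so no count over them describes the family, and poly(A) selection captures few of their mRNAs. Of those tested, 14 were called higher, 7 without the library with both compounds, and 0 lower, 1 without the DMSO library. A gene at low counts could pass that filter through the group with HMBA alone, as H4C15 did (7 counts without HMBA and 271 with it). The split of these calls is thus in part set by the filter. Histone variants, whose mRNAs are polyadenylated, were called higher in 8 of 10 cases, H3-3B at 627 CPM with DMSO, 679 with EPZ-5676, 1908 with HMBA and 2163 with the compounds combined and H2AX from 109 and 121 CPM to 307 and 405.

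Of 24 early response genes, 16 were called higher, 4 lower and 4 not called (median log2 0.97), with 11 higher without the library with both compounds. ARC, a synaptic immediate early gene, rose from 7.17 and 5.88 CPM to 57.3 and 58, while ZFP36L1 and ZFP36L2, which bind AU-rich mRNAs, fell from 98.2 and 67.7 CPM to 25.1 and 21.3 and from 34.1 and 33.1 CPM to 12.7 and 12.5. AP-1 subunits split, 6 of 12 called higher and 5 lower (50% and 41.7%, against 30.5% and 32.4% of all genes tested). FOSB and JUN rose from 4.84 and 4.64 CPM to 28.2 and 28.9 and from 26.6 and 15.5 CPM to 66.4 and 78.7, and FOSL1, MAFK and MAFG fell, FOSL1 from 342 and 235 CPM to 148 and 104. In the EGF receptor family, EGFR fell from 145 and 159.9 CPM to 64.7 and 61.2 (log2 -1.28) beside EREG, and HBEGF and ERBB3 rose from 14.8 and 21.6 CPM to 64.5 and 77.4 and from 30.5 and 26.8 CPM to 61.8 and 49.7. DUSP6, a phosphatase of ERK, rose from 71.8 and 50.2 CPM to 102.1 and 116 and DUSP2 fell from 24.7 and 24.7 CPM to 8.26 and 6.9. KLF2 rose from 7.3 and 8.37 CPM to 29.6 and 39.3 and KLF11 fell from 5.91 and 10.2 CPM to 1.15 and 1.86.

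Each list of signalling and epithelial genes held calls in both directions, with more lower than higher calls among epithelial genes. Of all genes tested, 30.5% were called higher and 32.4% lower. WNT genes had 14 of 35 called higher (40%) and 13 lower (37.1%). Their median log2 of 0.07 turned to -0.14 on unscaled totals. Beside WNT16, DKK1, a secreted WNT inhibitor, fell from 713 and 784 CPM to 70.1 and 138, and the receptors FZD4 and FZD7 rose from 7.5 and 9.0 CPM to 37.8 and 41.1 and from 4.18 and 4.98 CPM to 15.6 and 20.6. BMP and TGF-beta genes had 16 of 37 higher and 12 lower, with a median log2 of 0.09 that turned to -0.12 on unscaled totals. Their higher calls were 9 without the HMBA library, 9 without the combined library, 9 on unscaled totals and 8 with DESeq2. TGIF1, a repressor of SMAD signalling, fell from 83.4 and 115 CPM to 9.71 and 12 (log2 -3.19), the receptor TGFBR2 from 55.3 and 38.5 CPM to 11.6 and 11.7, and SKI, another SMAD repressor, rose from 75.4 and 69.7 CPM to 249.5 and 251. Among Notch and YAP genes, the ligand DLL4 rose from 0.398 and 0.969 CPM to 19.1 and 24 (ratio of scaled counts 32.1, interval 20.6 to 52.9) and JAG2 fell from 97.6 and 108 CPM to 31.3 and 29.1. Epithelial junction and keratin genes were called lower in 21 and higher in 9 of 39 cases (median log2 -0.49), the latter 4 without the EPZ-5676 library, 5 without the combined library and 2 on unscaled totals. KRT80, a keratin, fell from 133 and 150.1 CPM to 25 and 28.1, whereas CDH1 and JUP, of the adherens junction, rose from 103 and 108 CPM to 215 and 213 and from 413 and 411 CPM to 749 and 742. Of 50 genes of intestinal identity only 13 passed the filter on low counts.

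Metabolic lists had calls in both directions, with more higher than lower calls in the cholesterol, fatty acid and glycolysis lists. Of all genes tested, 30.5% were called higher and 32.4% lower. Cholesterol genes were called higher in 19 and lower in 6 of 33 cases (median log2 0.39). MYLIP, which degrades the LDL receptor, rose from 10.5 and 11.9 CPM to 69.6 and 81.7 (log2 2.75), INSIG1, which retains SREBP precursors, from 38.6 and 27.7 CPM to 154 and 116, and TM7SF2, a sterol reductase, from 21.4 and 21.2 CPM to 108 and 109. INSIG2 fell from 22.1 and 23 CPM to 7.04 and 8.29 and CYP51A1, a lanosterol demethylase, from 90.2 and 87.8 CPM to 55 and 54.7. Fatty acid genes had 17 of 29 higher, 10 on unscaled totals, and 6 lower, 3 without the DMSO library, 2 without the combined library and 3 with DESeq2. ACSL3, an acyl-CoA synthetase, rose from 79.6 and 80.5 CPM to 191 and 179. Glycolysis and hypoxia genes had 20 of 33 higher and 8 lower, the latter 4 without HMBA, 5 without EPZ-5676 and 5 without the combined library. ARRDC4, a glucose-responsive arrestin, rose from 19.4 and 18.6 CPM to 69.1 and 84.5, PFKFB3, which makes the activator of phosphofructokinase, from 79.5 and 91.2 CPM to 168 and 199.8, and ADM, a hypoxia-responsive peptide hormone, fell from 77 and 94.7 CPM to 18.2 and 17.5. SAT1, which acetylates polyamines, rose from 304 and 325 CPM to 679.5 and 777 and SRM, spermidine synthase, fell from 137 and 157 CPM to 84.4 and 82.6.

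Of the lists of transcription factors and chromatin genes, several had more lower than higher calls. Among all genes tested, 32.4% were called lower and 30.5% higher. HOX genes had the lowest median of the 56 lists, log2 -1.13, with 16 of 24 tested called lower and 1 higher (0 with DESeq2), out of 39 in the family. Members at low counts could pass the filter through the group where they were high, so the split describes those tested only. HOXA11 fell from 7.96 and 11.1 CPM to 0.382 and 0.265 (9 counts with HMBA and 281 without, ratio 29.8, interval 15.5 to 65.8), and HOXA3 from 7.9 and 9.96 CPM to 0.688 and 0.863. Nuclear receptors were called lower in 13 and higher in 3 of 19 cases (median log2 -0.74), with 1 higher with DESeq2. NR5A2 fell from 15.4 and 14.4 CPM to 0.918 and 0.664, NR3C1, the glucocorticoid receptor, from 22.2 and 33.5 CPM to 3.21 and 3.78 (log2 -2.98), and VDR, the vitamin D receptor, rose from 11.6 and 14.4 CPM to 73.8 and 81.6 (log2 2.58). Zinc finger genes with a ZNF number were called lower in 175 and higher in 79 of 369 cases (median log2 -0.31). ZNF710 fell from 20.9 and 19.2 CPM to 1.76 and 1.39 and ZNF117 rose from 2.72 and 1.8 CPM to 11.8 and 12.8. Histone methyltransferases and demethylases were called lower in 24 and higher in 9 of 46 cases, with 5 higher with DESeq2. NSD1, a writer of H3 lysine 36 methylation, fell from 138 and 137 CPM to 42.6 and 45.6, and KDM3A, a demethylase of H3 lysine 9, rose from 22.1 and 29.3 CPM to 71.3 and 84.1. Of 28 histone acetyltransferases, deacetylases and sirtuins, 10 were called lower (5 with DESeq2) and 9 higher, shares near those of all genes tested. Among them HDAC7, a class II deacetylase, fell from 37.5 and 34.1 CPM to 9.41 and 5.91. Clock genes divided, with PER1 and CRY2 rising from 28.5 and 33.6 CPM to 133 and 146 and from 18.5 and 16.8 CPM to 87.9 and 94.6 and CLOCK falling from 78.8 and 78.3 CPM to 24.9 and 22.8.

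Survival, inflammatory and RNA-handling genes made up the rest. BCL2 family and other apoptosis genes had 9 of 28 higher (32.1%) and 12 lower (42.9%), against 30.5% and 32.4% of all genes tested. BCL2L11, which encodes the killer BIM, rose from 21.4 and 25 CPM to 81.4 and 104 (log2 1.99), and the survival genes BCL2L1 and CFLAR fell from 257 and 264 CPM to 82.3 and 70.7 and from 42 and 39.2 CPM to 8.64 and 6.97. p53 targets had 15 of 31 higher and 9 lower, and GADD45B rose from 36.8 and 28.8 CPM to 204 and 213 while AEN, an apoptotic nuclease, fell from 78.5 and 91.4 CPM to 28.1 and 31.3. Among NF-kB responsive genes, NFKBIZ, a nuclear IkB protein, rose from 1.46 and 2.28 CPM to 14.3 and 23.7, and NFKB1 and PLAU, the urokinase gene, fell from 53.2 and 48.2 CPM to 15.3 and 12.3 and from 224 and 161 CPM to 27.7 and 21.2. Interferon-stimulated genes were called at shares near those of all genes, 13 of 34 higher (38.2%) and 10 lower (29.4%), or 8 and 5 with DESeq2, with IRF7 going from 4.18 and 3.74 CPM to 22.1 and 27.9 and IFIT5 from 34.4 and 29.2 CPM to 4.74 and 4.05, and their median log2 of 0.10 turned to -0.11 on unscaled totals. Genes of mRNA decay were called lower in 19 and higher in 7 of 41 cases. TENT5B, a relative of TENT5C, rose from 11.3 and 5.88 CPM to 42.4 and 44.3, and EXOSC3, an exosome subunit, fell from 40.9 and 48.6 CPM to 13.3 and 13.8. SRSF1, a splicing factor, fell from 621 and 633 CPM to 315 and 304, and PTBP1, a splicing repressor, rose from 424 and 383 CPM to 709 and 669.

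**Figure D4:**
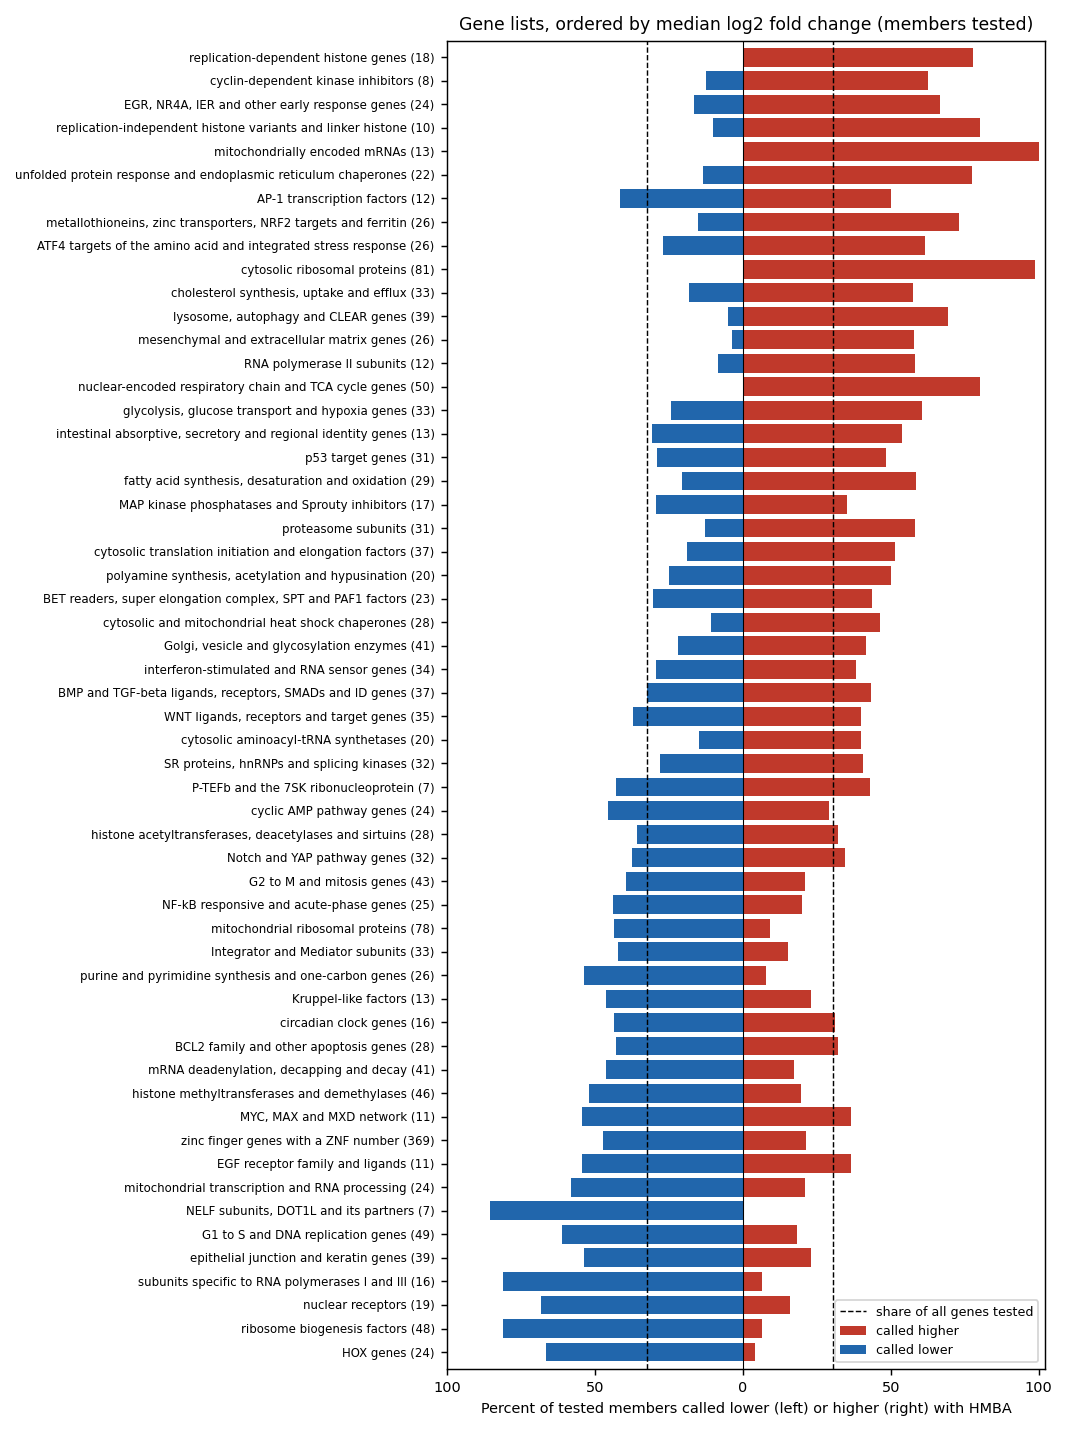
For each of 56 gene lists, ordered by median log2 fold change, the bars give the percent of tested members called higher with HMBA (red, right) or lower (blue, left), with the number tested in brackets. Dashed lines mark the shares over all genes tested, 30.5% higher and 32.4% lower, and HOX genes at the bottom and ribosome biogenesis factors next to them have the longest runs of lower calls among lists of over 20 members.

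Calls of at least 2-fold were tabulated by gene structure. Among 12628 tested protein coding genes, 9.73% were called at least 2-fold higher and 12.6% at least 2-fold lower. For the 194 genes whose longest transcript by exon number has 1 exon, the shares were 23.7% and 24.2%, and for the 967 genes with 2 to 3 exons 14.9% and 25.9%. Genes with 11 to 20 exons had 8.63% and 10%, and genes with 21 or more 9.53% and 7.4%. Without histone genes, 183 genes with 1 exon had 20.8% and 25.7%. Gene span showed less contrast, with 10.4% and 16.4% in the shortest quintile (192 to 10844 bases) and 11.6% and 11% in the longest (97522 to 2305000 bases). Spearman's rho across genes between log2 fold change and exon number was 0.0617 and with span 0.0583, both near 0, over genes that share libraries and are not independent. Shares of 2-fold calls also differed by level, 20.5% higher and 16.4% lower in the quintile with the lowest mean CPM and 6.97% and 5.3% in the quintile with the highest. Genes with a low mean could pass the filter on low counts through 1 HMBA group alone, so this contrast is in part set by the filter. Exon number was not set against level.

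The response to HMBA in shCTL cells was set against that in shNELFE cells by a product term in a fit of the 8 libraries numbered 2, which share no HMBA or control library between the 2 lines. Of 14808 genes, 36 differed (0.243%), 34 with a higher log2 response in shNELFE cells (0.230%) and 2 with a lower one (0.0135%). An unadjusted p under 0.05 was found for 1121 genes. ADM stood at 76.5 and 94.2 CPM without HMBA and 18.1 and 17.3 with it in shCTL cells, and at 68.9 and 71.5 CPM without HMBA and 83.7 and 77.1 with it in shNELFE cells. The fall in shCTL cells was thus not seen in shNELFE cells, and the difference of log2 responses was 2.46 (SE 0.16, adjusted p = 3.8e-06). MYC stood at 835 and 832 CPM without HMBA and 34.6 and 33.8 with it in shCTL cells and at 656 and 764 CPM without HMBA and 72.9 and 63.4 with it in shNELFE cells, a steep fall in both that differed by 1.22 (SE 0.14, adjusted p = 0.0015). ARC was at 7.12 and 5.85 CPM without HMBA and 56.9 and 57.5 with it in shCTL cells and 6.16 and 6.22 CPM without HMBA and 363 and 294 with it in shNELFE cells, a rise in both (difference 2.58, SE 0.19). DUSP2 fell in shCTL cells, with 24.5 and 24.6 CPM without HMBA and 8.2 and 6.85 with it, and stood at 17.7 and 22.3 CPM without HMBA and 21 and 20.5 with it in shNELFE cells (difference 1.77). ELF3, an epithelial ETS factor, stood lower in shNELFE cells without HMBA, with 82.8 and 77.9 CPM without HMBA and 78.7 and 75.4 with it in shCTL cells and 35.7 and 27 CPM without HMBA and 84.2 and 75.7 with it in shNELFE cells (difference 1.41). The number of genes was 159 with no filter on low counts and 58 with DESeq2, 20 without the shNELFE EPZ-5676 library, 64 without the shNELFE HMBA library and 105 without the shNELFE library with both compounds. With all 16 libraries and the replicate number as a block it was 0 in edgeR (149 unadjusted), 0 in limma-voom and 2 in DESeq2, and MYC turned to -1.23. In that fit, 3 of the 4 shNELFE libraries numbered 1 did not show the low NELFE level of those numbered 2. NELFE was 146 CPM (DMSO), 93 (EPZ-5676) and 81.2 (HMBA) in them, against 14.5 to 20.9 in the shNELFE libraries numbered 2, and the HMBA one had 46.5 CPM of HEXIM1. The shNELFE library numbered 1 with both compounds matched its label, with 12.5 CPM of NELFE and 325 of HEXIM1. For the other genes, responses that did not pass are not shown to be alike.

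The difference of the HMBA response by EPZ-5676 status was tested in the same way. The same 8 libraries called 5 of 14808 (0.0338%), 2 with a higher log2 response under EPZ-5676 (0.0135%) and 3 with a lower one (0.0203%), and 1654 had an unadjusted p under 0.05. Counts were simulated with 200 changed genes and no other effect of HMBA, EPZ-5676 or shRNA. On them this test recovered 37.3% of genes made to differ 1.5-fold and 74.6% at 2-fold. Genes that did not pass are thus not shown to respond alike. PLPP3, a lipid phosphatase, stood in shCTL cells at 9.96 CPM under DMSO, 9.42 under HMBA, 40.2 under EPZ-5676 and 11.7 under both, so that its rise with EPZ-5676 was lower with HMBA (difference -1.77, SE 0.19, adjusted p = 0.002). SLC38A2, an amino acid transporter, stood at 469 CPM under DMSO, 103 under HMBA, 290 under EPZ-5676 and 109 under both, and its fall was smaller under EPZ-5676 (difference 0.78, adjusted p = 0.042). MSL3P1, a transcribed pseudogene, stood at 24.1, 13.4, 17.9 and 18.3 CPM in the same order (difference 1.17, adjusted p = 0.046). ENSG00000279809, an unnamed transcript at the same place on chromosome 2, had 0 counts in the shCTL library with both compounds and 4.40 CPM under EPZ-5676, and reads of the 2 cannot be told apart without the strand. The remaining gene, ENSG00000258465, had 0 counts in both DMSO libraries, so its fitted difference is no bound. RLE scaling called 2 genes, no filter 184, DESeq2 23 and the block fit of all 16 libraries 0 in edgeR (1855 unadjusted), 0 in limma-voom and 28 in DESeq2. Without single libraries the count was 12 (shNELFE DMSO), 26 (shCTL EPZ-5676), 37 (shNELFE EPZ-5676), 28 (shCTL HMBA) and 17 (shNELFE HMBA). SLC38A2 lost its call with RLE scaling and without the shCTL DMSO library (0.69, adjusted p = 0.168) or the shNELFE library with both compounds (0.70, adjusted p = 0.128). MSL3P1 lost its call with RLE scaling and without either DMSO library, the shNELFE HMBA library or either library with both compounds, with differences of 1.06 to 1.28.

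**Figure D5:**
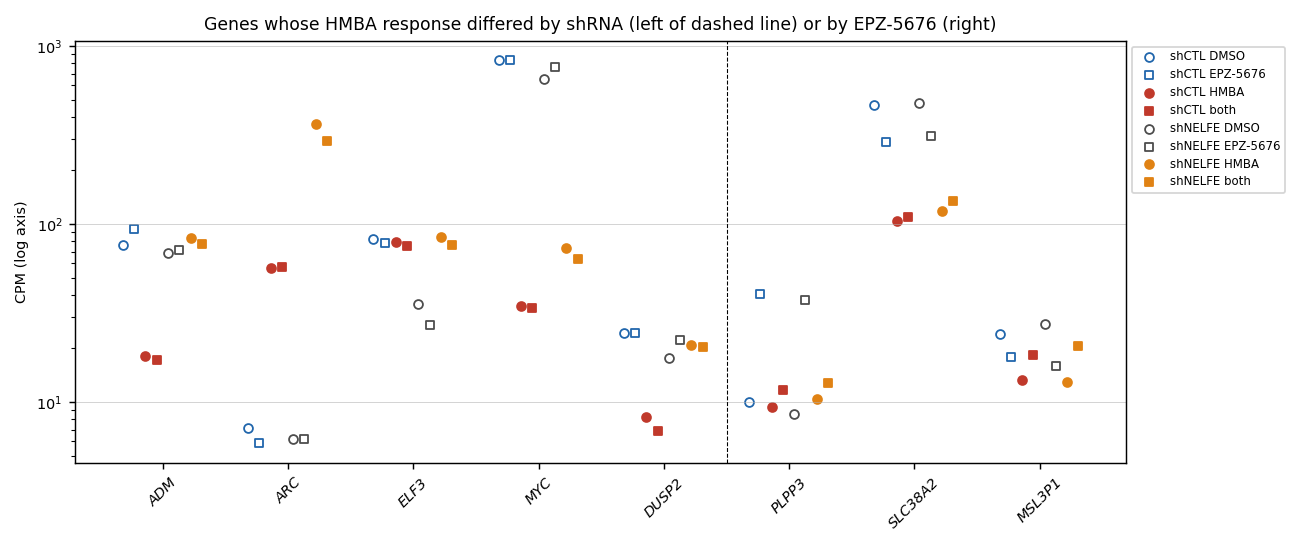
Levels in CPM on a log axis in the 8 libraries numbered 2 for the 5 genes with the smallest p for a difference between shRNAs (left of the dashed line) and for 3 genes whose response differed with EPZ-5676 (right), 1 point per library. ADM fell to 18.1 and 17.3 CPM with HMBA in shCTL cells and stood at 83.7 and 77.1 in shNELFE cells.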

How the data were processed

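Libraries were grouped by their titles. The deposited table holds the authors' raw counts of reads per gene for 16 libraries of poly(A) RNA, made with a stranded TruSeq mRNA kit per the labels' protocols. The submitters' processing notes name STAR 2.4.0b, Cufflinks 2.1.1, HTSeq 0.6.1p1, edgeR and the hg38 build. Which annotation release and which strand option HTSeq was run with is not given in the sources used here, so overlapping and antisense genes cannot be told apart. Of 60676 identifiers, 42009 matched a symbol and 58503 a position in GENCODE release 29.

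The 4 shCTL libraries numbered 2 were fitted with terms for EPZ-5676 and HMBA in edgeR 4.0.16 (R 4.3.3, limma 3.58.1) by the quasi-likelihood F-test, with TMM scaling, filterByExpr (minimum count 10), 1 residual degree of freedom and Benjamini-Hochberg adjustment at 0.05 over 14248 genes. The filter was grouped by HMBA status, so a gene could pass through the group where it was high. Differences of responses were product terms in the 8 libraries numbered 2, over 14808 genes with 3 residual degrees of freedom. Each SE given is the absolute log2 value divided by the square root of its F statistic, so it restates that test and is no separate measure of spread. Alternatives were RLE scaling, unscaled totals, no filter, DESeq2 1.42.0, limma-voom, no EPZ-5676 term, other sets of libraries, a block for the replicate number, and fits that omit 1 library each.

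Samples of shCTL that share a replicate number deviated together from their group means, with correlations of 0.36 to 0.877 over 6 pairs of groups. The shCTL libraries numbered 1 go against their labels, so these correlations cannot show that the numbers pair the samples. The number was used as a block only in alternative fits. The libraries, the 56 gene lists and the tests were chosen with earlier results of these data known.

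Named genes were all members of the P-TEFb, MYC and CDK inhibitor lists. They also were the 12 largest rises and 12 largest falls by fold and the 8 by CPM difference, among called genes at 20 CPM or more in the higher group with 1 direction in both pairs and a gene symbol that names no clone, antisense RNA or pseudogene. Each other list gave up to 3 called members per direction at 5 CPM or more, of which some are given, and each difference the 5 smallest p. Some genes that the rule names are not reported here. The biological coefficient of variation was 0.0721. On counts simulated with 200 changed genes among 14248 and no EPZ-5676 effect, the HMBA fit recovered 67.2% of those made to differ 1.5-fold. It recovered 73.1% at 2-fold and 90.9% at 4-fold, and 8.33% of 168 calls were false. In the data 63.0% of genes were called, so neither the recovery nor the false share carries over to that comparison.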

Additional observations from a re-analysis of the deposited data

Results flagged for a closer look

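The response to HMBA differed between shRNA lines, by the test of the product term in the 8 libraries numbered 2, for 36 genes. ADM led with a difference of 2.46 (log2, shNELFE minus shCTL), followed by ARC with 2.58, ELF3 with 1.41, MYC with 1.22 and DUSP2 with 1.77. The response differed by EPZ-5676 status for 5 genes, by the same kind of test. ENSG00000279809 had a fitted difference of -13.69 that rests on libraries with 0 counts and is no bound, PLPP3 had -1.77, SLC38A2 0.78 and MSL3P1 1.17. No test for a library far from the others was run, since each arm of the comparison holds 2 libraries.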

How the results depend on the processing

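Of 332 genes named under the rule, 330 kept 1 direction under every alternative on the libraries numbered 2, and 296 also kept their side of the threshold. The 8970 calls were 9191 with RLE scaling, 9147 with unscaled totals, 9164 with no filter, 9101 with limma-voom, 8123 with no EPZ-5676 term, 6141 with DESeq2 and 8963 with all 8 libraries numbered 2, and 6341 to 7741 when a library was left out. The replicate number was tried as a block with all 8 shCTL libraries. With the replicate block the calls, the higher calls, the lower calls and the calls of at least 2-fold were 0 (366 at an unadjusted p under 0.05), and with no replicate block they were 0 (97 unadjusted). The shCTL libraries numbered 1 go against their labels, and 3 of the 4 shNELFE ones lack the low NELFE level of those numbered 2, so fits with them mix that disagreement with the effect. The directions that turned, as log2 fold changes, were these. With the block they were FAT1 0.0029, POLR2D 0.22, EIF3A 0.085, HSPB8 1.42, TGFA -0.46, JUP -0.095, LAMA3 -0.52, NCOA1 -0.0081 and NR2F1 1.09. Without it they were MXD4 -0.11, POLR2D 0.19, WARS1 -0.0016, HSPB8 2.11, H1-10 -0.32, DUSP16 -0.13, ERBB3 -0.089, FZD7 -0.0026, BAMBI -0.69, CDH1 -0.048, TAGLN -0.049, SQLE 0.046, SLC2A1 0.043, ZNF703 -0.27, NCOA1 -0.098 and SIRT2 -0.13. NOC2L turned to -0.031 on unscaled totals and THBS1 ranged from -0.85 to 0.14 without single libraries, the latter without the shCTL EPZ-5676 library. The 36 differences between shRNAs were 159 with no filter, 58 with DESeq2, 0 with the replicate block over 16 libraries, where MYC was -1.23, and 20 to 105 without single libraries. The 5 differences by EPZ-5676 were 2 with RLE scaling, 184 with no filter, 23 with DESeq2, 0 with the block and 4 to 37 without single libraries. Causes were not tested, beyond the larger number of genes tested with no filter. With 1 residual degree of freedom among 4 libraries, small changes are limited by the pairs' disagreement and by counts near the floor.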

Other observations

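Among gene types, 1026 long non-coding genes tested were called at least 2-fold higher in 18.3% and lower in 21.4% of cases, and 459 pseudogenes in 13.5% and 8.5%, against 9.73% and 12.6% of protein coding genes. Gene types were not matched for level, and protein coding genes of the quintile with the lowest mean CPM had 20.5% and 16.4%. Reads of overlapping genes cannot be told apart here. By mean CPM over the 4 libraries, protein coding genes of the top quintile (77.2 CPM and more) were called higher in 47.9% and lower in 27.4% of cases, and those of the second quintile (6.43 to 18.6 CPM) in 24.9% and 39.8%. By chromosome, genes on X were called higher in 34.6% and lower in 23.5% of 405 cases, and genes on chromosome 13 in 27.5% and 40.5% of 200 cases. Promoter GC content showed little contrast, with 29.8% higher and 33.1% lower in the quintile with the lowest GC and 31.3% and 36.5% in the quintile with the highest.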
